A study of Mus musculus with 2 samples.

Results

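The genes described here encode the pattern recognition receptors of innate immunity and their first signalling partners. They were taken by symbol and number 48 of the 43346 genes with an Ensembl identifier in the tables. They comprise 12 Toll-like receptors, 6 adaptors and IRAK kinases that carry the signal of those receptors, 5 genes of cytosolic RNA and DNA sensing, and 25 NOD-like receptors. Among the last, Nlrp4d and Nlrp4g are annotated as pseudogenes. The symbol Mb21d1 was matched under its current name, Cgas.

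The libraries were made from polyadenylated RNA of whole spleen from 1 adult male C57BL/6J mouse aged 10 weeks. They are labelled technical replicate 2, dated May 2015, and technical replicate 1, and both belong to biological replicate 1. Both share strain, sex, age, tissue, extraction kit and fragment size range, and neither carries a treatment or a mutant allele. The labels do not say whether both libraries came from the same RNA extract, and with 1 library on each side every comparison below is between these libraries and has no replicate check.

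Pattern recognition receptors are encoded in the germline and bind molecules that microbes share or that appear in the wrong compartment of a cell. Toll-like receptors sit in the plasma membrane or in endosomes. They signal through the adaptor Myd88 to IRAK kinases, or through the adaptor Trif (gene Ticam1). The RIG-I-like helicases, cGAS and the NOD-like receptors survey the cytosol. In the spleen, B cells, dendritic cells and macrophages are the main cells known to carry them. The RNA is of the whole organ, so fewer cells of a type and less RNA per cell cannot be told apart in any value below.

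Technical replicate 2 held 3806381 expected counts on genes and technical replicate 1 held 27528824, a depth ratio of 7.23. Markers of spleen cells were present in both: all 6 B cell markers reached 1 TPM, the length-corrected share of transcripts that the tables give in each library, with summed levels of 1191 TPM in technical replicate 2 and 3235 TPM in technical replicate 1. The 6 erythroid markers, 4 of them haemoglobin genes, held 44.2% of the TPM of technical replicate 2 and 4.26% of that of technical replicate 1, which lowers the TPM of every other gene in technical replicate 2. Count ratios were scaled by the trimmed mean of M-values (TMM). Under it 1000 counts in technical replicate 1 correspond to 57.6 in technical replicate 2, against 138 when libraries are scaled by total counts. This choice moves every log2 ratio by 1.26, and how much of that comes from the erythroid markers was not tested. A gene was called higher or lower in technical replicate 2 when the whole 95% counting interval of its ratio lay beyond 1.5-fold, and 31 of the 48 sensor genes had enough counts to be tested.

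The sensor genes were low in technical replicate 2. Summed over all 48, they held 103 TPM in technical replicate 2 and 957 TPM in technical replicate 1, a 9.27-fold lower level. Rescaled to the TPM outside the 6 erythroid markers, the sums were 185 in technical replicate 2 and 999 in technical replicate 1, which is 5.40-fold lower. At 1 TPM, 15 sensor genes were detected in technical replicate 2 and 33 in technical replicate 1. Of all 12467 tested genes, 8886 reached 1 TPM in technical replicate 2 and 12404 in technical replicate 1. Lower TPM in technical replicate 2 was common to most genes. The median log2 TPM ratio, with a pseudocount of 1, was -2.70 for the tested sensor genes and -2.10 for all tested genes. Every one of the 31 tested sensor genes had a lower TPM in technical replicate 2 than in technical replicate 1, while 13.1% of all 12467 tested genes had a higher one. The filter for testing asked for a mean of at least 1 TPM and at least 50 counts over both libraries. A gene below 1 TPM in technical replicate 2 could therefore pass only through technical replicate 1. For such genes the direction in TPM was fixed by the filter.

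On the TMM scale, 16 of the 31 tested sensor genes were called lower in technical replicate 2, 3 were called higher and 12 were not called. Over all 12467 tested genes, 32.6% were called lower and 28% higher, so differences between these libraries are common. The median log2 ratio was -1.46 for the tested sensor genes and -0.27 for all tested genes. With DESeq2 size factors 15 sensor genes were lower and 5 higher, beside 30.5% and 29.5% of all tested genes. With total counts 24 were lower and 0 higher, beside 58.5% and 14.6% of all tested genes. From the TPM ratio with a pseudocount of 1, all 31 were below the 1.5-fold limit and 0 above it, beside 80.8% and 8.4% of all tested genes.

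A stricter reading kept only calls made under TMM, DESeq2 size factors and total counts with the TPM on the same side. Under it 15 sensor genes were lower in technical replicate 2 and 0 were higher, beside 30.5% and 11.8% of all tested genes. The 15 are 9 Toll-like receptors (Tlr1, Tlr4, Tlr5, Tlr6, Tlr7, Tlr8, Tlr9, Tlr11 and Tlr13), Ifih1, Tmem173, Nlrc4, Nlrc5, Nlrp1b and Nlrp3. Only 3 of these, Ifih1, Tmem173 and Nlrc5, had at least 20 counts in technical replicate 2. Of the 15, Tmem173 and Nlrc5 alone reached 1 TPM there, so the others passed the filter for testing only through technical replicate 1. The 3 genes called higher under TMM, Irak2, Ticam1 and Dhx58, lie below a ratio of 1 in TPM, so their direction depends on the scale.

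**Figure D1:**
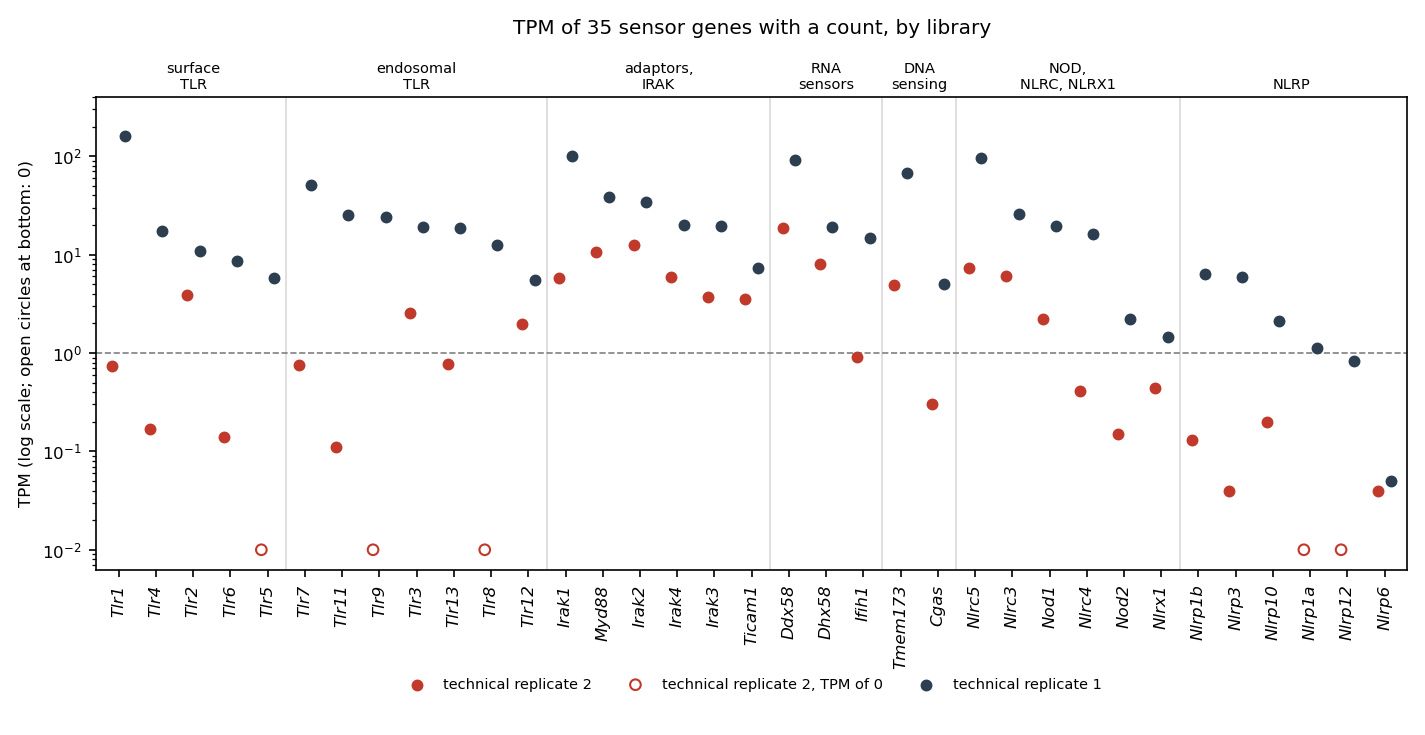
TPM (log axis) of the 35 sensor genes with a count in either library, ordered by role and then by level in technical replicate 1. Red points are technical replicate 2, dark points technical replicate 1, open circles a TPM of 0, and the dashed line marks 1 TPM. Each tested gene has its red point below its dark point. The gap is wide for most Toll-like receptors and narrower for the adaptors and kinases, except Irak1.

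The makeup of the sensor transcripts also differed within each library, where library scaling plays no part. The 12 Toll-like receptors held 10.8% of the summed sensor TPM in technical replicate 2 and 37.6% in technical replicate 1. The 6 adaptors and kinases held 40.8% in technical replicate 2 and 22.9% in technical replicate 1. Receptor TPM divided by adaptor TPM was 0.264 in technical replicate 2 and 1.64 in technical replicate 1. Of the 10 highest sensor genes by TPM in each library, 7 were shared, and over the 35 genes with a count the TPM orders had a Spearman rho of 0.64, beside 0.51 over all tested genes.

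The DNA just upstream of the sensor genes varied in base composition. The RefSeq promoter table (GRCm38.p6) held 39 of the 48 sensor genes, and 250 upstream bases are printed for 2 receptors that nearly or wholly lacked counts in technical replicate 2 (Tlr9 and Tlr11) and for 2 signalling genes called higher there (Irak2 and Ticam1). Capitals mark GAGGAA, the core of the purine-rich element that the myeloid and B cell factor PU.1 is known to bind, searched on both strands. These 4 genes were chosen after their values were seen.
Tlr9 (chr9:106222348-106222597, plus strand): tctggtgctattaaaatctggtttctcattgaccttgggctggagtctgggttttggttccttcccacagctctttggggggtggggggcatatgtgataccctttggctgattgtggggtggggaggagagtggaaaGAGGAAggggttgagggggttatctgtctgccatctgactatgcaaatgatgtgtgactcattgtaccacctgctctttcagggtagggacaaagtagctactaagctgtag
Tlr11 (chr14:50357664-50357913, plus strand): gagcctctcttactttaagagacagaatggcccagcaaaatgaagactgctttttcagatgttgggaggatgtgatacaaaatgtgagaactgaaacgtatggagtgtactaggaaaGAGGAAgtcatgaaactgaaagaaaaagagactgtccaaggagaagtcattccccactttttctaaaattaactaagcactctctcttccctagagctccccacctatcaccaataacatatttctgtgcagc
Irak2 (chr6:113638217-113638466, plus strand): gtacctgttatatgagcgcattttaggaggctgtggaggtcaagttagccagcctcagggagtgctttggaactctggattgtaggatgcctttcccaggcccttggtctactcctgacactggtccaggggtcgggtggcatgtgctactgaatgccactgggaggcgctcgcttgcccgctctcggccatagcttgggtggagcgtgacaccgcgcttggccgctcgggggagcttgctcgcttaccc
Ticam1 (chr17:56276768-56277017, minus strand): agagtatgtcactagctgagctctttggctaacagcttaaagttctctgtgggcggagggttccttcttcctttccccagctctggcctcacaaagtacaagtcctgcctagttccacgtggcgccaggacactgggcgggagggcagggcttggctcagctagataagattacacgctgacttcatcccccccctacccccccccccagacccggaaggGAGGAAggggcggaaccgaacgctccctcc

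The Tlr9 stretch held 0 CG dinucleotides and the Tlr11 stretch 1, while that of Irak2 held 12 and that of Ticam1 held 9. Among the sensor genes lower under every scaling, 11 had a promoter entry, with a median upstream GC content of 44.4% and a median CpG observed over expected ratio of 0.212. The other tested sensor genes, 14 with an entry, had medians of 54.2% and 0.523. The CpG ratios of these sets overlapped almost wholly, from 0 to 0.789 in the genes lower under every scaling and from 0.118 to 0.732 in the others. Ifih1, lower under every scaling, had the 0.789, with 11 CG dinucleotides. The rest of its set lay below 0.523 when the entries of each gene were averaged. All 32851 promoter entries had medians of 52.4% and 0.374. GAGGAA was present in 11 of the 50 entries of sensor genes (22%) and in 23.3% of all entries. The interferon response element GAAANNGAAA, also searched on both strands, was present in 3 of the 50 (Tlr6, Tlr11 and Myd88) and in 2.98% of all entries. These are descriptions of the sequence, and binding was not measured.

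The cell surface receptors recognise bacterial lipids and proteins. Of the 5, 4 were called lower in technical replicate 2 and 0 higher, with a median log2 ratio of -3.53. Tlr1, which pairs with Tlr2 to bind lipopeptides, lies on chromosome 5 (64924679 to 64933563, minus strand, mm10). It had 11 counts (0.74 TPM) in technical replicate 2 and 7640 counts (162 TPM) in technical replicate 1. It was the highest sensor gene of technical replicate 1 and ranked 19 of 48 in technical replicate 2. Its count ratio was 40.0-fold lower in technical replicate 2, with a log2 ratio of -5.32 and an interval of -6.33 to -4.48.

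Tlr4, the receptor for lipopolysaccharide, had 4 counts (0.17 TPM) in technical replicate 2 and 1268 counts (17.3 TPM) in technical replicate 1, a log2 ratio of -4.19 (interval -6.07 to -2.83). Tlr6, the other partner of Tlr2 and a close paralogue of Tlr1, had 2 counts in technical replicate 2 and 402 in technical replicate 1, a log2 ratio of -3.53 (interval -6.58 to -1.67). Tlr1 and Tlr6 lie side by side and share sequence, so the deposited counts may divide reads between them. Both were called lower. Tlr5, the flagellin receptor, had 0 counts in technical replicate 2 and 310 counts (5.77 TPM) in technical replicate 1. Set against a floor of 3 counts per library, it was at least 5.96-fold lower.

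Tlr2, the common partner of the lipopeptide receptors, stood apart from the other 4. It had 66 counts (3.90 TPM) in technical replicate 2 and 584 counts (10.8 TPM) in technical replicate 1. Under TMM its log2 ratio was 0.97 (interval 0.58 to 1.34), which was not called, and with total counts it was -0.29. The pair of genes that make up the Tlr1 and Tlr2 receptor therefore held TPM values of 0.74 and 3.90 in technical replicate 2 and of 162 and 10.8 in technical replicate 1.

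The endosomal receptors recognise nucleic acids and, in mice, parasite profilin. Of the 7, 5 were called lower in technical replicate 2 and 0 higher, with a median log2 ratio of -3.26. Tlr9, the receptor for unmethylated CpG DNA, is a gene of chromosome 9 (106222598 to 106226883, plus strand, mm10). No read was assigned to it in technical replicate 2, where 3 counts would correspond to 0.153 TPM, against 1512 counts (24.03 TPM) in technical replicate 1. It was at least 29.1-fold lower under TMM and at least 69.7-fold lower under total counts. Of all 5496 tested genes with at least 1000 counts in technical replicate 1, 80 (1.46%) had 0 counts in technical replicate 2, and Tlr9 was the 1 sensor gene among them.

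Tlr11, a receptor for protozoan profilin in mice, had 2 counts (0.11 TPM) in technical replicate 2 and 1462 counts (25.4 TPM) in technical replicate 1, a log2 ratio of -5.40 (interval -8.44 to -3.54). Its heterodimer partner Tlr12 had 35 counts (1.96 TPM) in technical replicate 2 and 289 counts (5.50 TPM) in technical replicate 1, a log2 ratio of 1.07 (interval 0.52 to 1.58) that was not called. The order of these partners thus differed, with Tlr12 the higher in technical replicate 2 and Tlr11 the higher in technical replicate 1.

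Tlr7, a receptor for RNA of viruses, had 16 counts (0.75 TPM) in technical replicate 2 and 2662 counts (50.4 TPM) in technical replicate 1, which made it 9.59-fold lower under TMM (log2 ratio -3.26, interval -4.07 to -2.56). Its X-linked neighbour Tlr8 had 0 counts in technical replicate 2 and 553 in technical replicate 1, and was at least 10.6-fold lower. Tlr13, which recognises bacterial ribosomal RNA in mice, had 18 counts in technical replicate 2 and 1368 in technical replicate 1, a log2 ratio of -2.13 (interval -2.89 to -1.47). Tlr3, the sensor of viral RNA duplexes that signals through Ticam1 in place of Myd88, was not called under TMM, unlike the other RNA receptors. It had 63 counts (2.56 TPM) in technical replicate 2 and 1490 counts (18.9 TPM) in technical replicate 1. Its log2 ratio was -0.45 (interval -0.83 to -0.08), and with total counts it was called lower, at -1.71. Differences between the receptors were not tested.

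Over both compartments, 9 of the 12 Toll-like receptors had at most 20 counts in technical replicate 2 and 0 did in technical replicate 1. This limit takes no account of depth. At 57.6 counts per 1000 under TMM, Tlr5 with 310 counts in technical replicate 1 would meet it at equal share. The share over all genes was counted only for those with at least 1000 counts in technical replicate 1, where it was 14.4%. Their summed TPM was 11.1 in technical replicate 2 and 360 in technical replicate 1, 32.4-fold lower. Markers of receptor-bearing cells went both ways. Of the 6 B cell markers 4 were called lower and 2 higher, of the 6 macrophage markers 3 were lower and 2 higher, and of the 5 plasmacytoid dendritic cell markers 1 was lower and 1 higher. Among plasmacytoid dendritic cell markers, which belong to cells rich in Tlr7 and Tlr9, Ccr9 had 0 counts in technical replicate 2 and 936 in technical replicate 1, Siglech had 39 in technical replicate 2 and 1384 in technical replicate 1 and was not called, and Bst2 had 1943 counts in technical replicate 2 and 690 in technical replicate 1 and was called higher. Summed over its 5 markers this list held 568 TPM in technical replicate 2 and 306 TPM in technical replicate 1, and without Bst2 it held 42.3 TPM in technical replicate 2 and 243 TPM in technical replicate 1. The 6 macrophage markers summed to 683 TPM in technical replicate 2 and 795 TPM in technical replicate 1, of which C1qa made up 569 TPM in technical replicate 2 and 90.1 TPM in technical replicate 1. The part of cell composition in the receptor values was not tested.

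**Figure D2:**
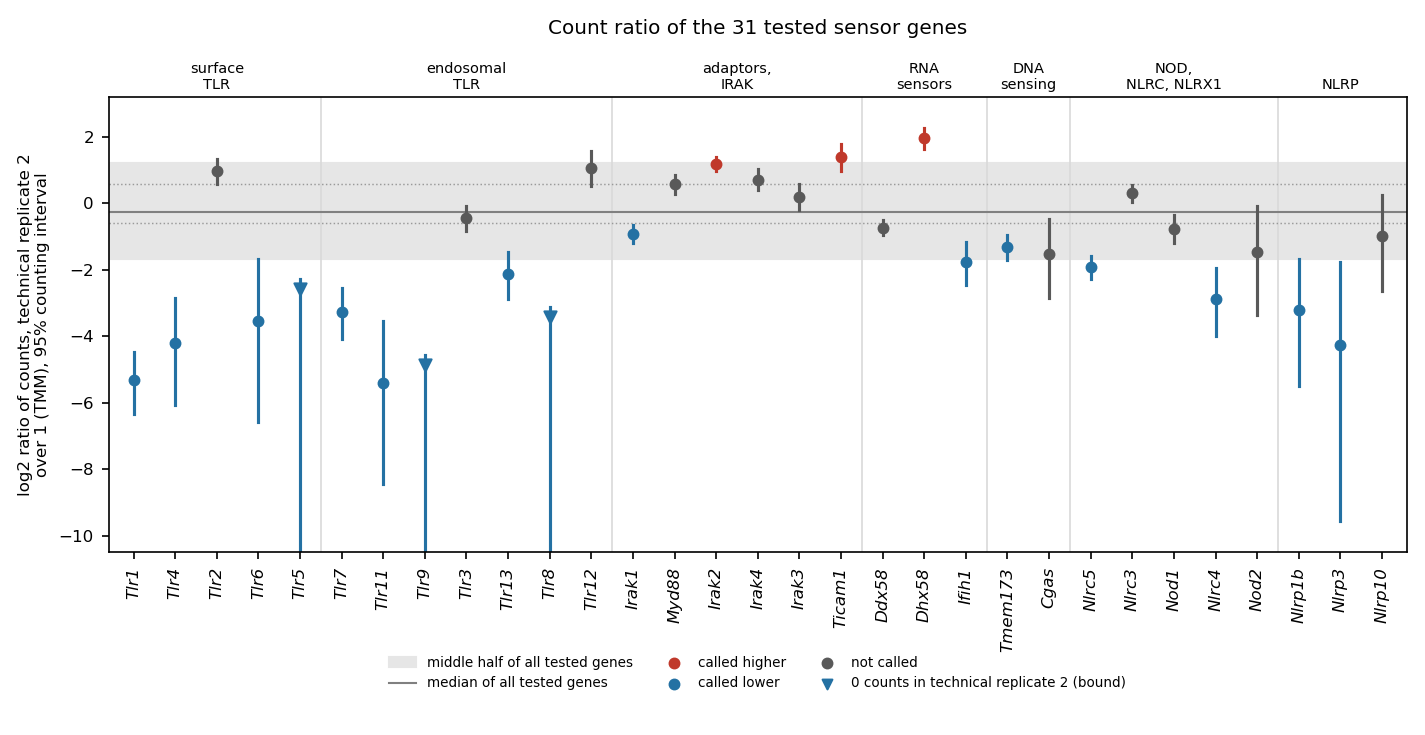
Log2 ratio of counts, technical replicate 2 over technical replicate 1, on the TMM scale for the 31 tested sensor genes by role, with 95% counting intervals (clipped at the lower edge). Red marks genes called higher, blue called lower, grey not called, and triangles genes with 0 counts in technical replicate 2. The dotted lines mark 1.5-fold, the solid line the median of all tested genes (-0.27) and the band their quartiles (-1.66 and 1.22). Most Toll-like receptors lie below the band and the adaptors and kinases lie within or just above it.

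The genes that pass on the signal of these receptors did not share the low counts. All 6 adaptors and kinases reached 1 TPM in both libraries. Under TMM 2 were called higher in technical replicate 2 and 1 lower, with a median log2 ratio of 0.64. With total counts the 6 had a median of -0.62, and 2 of them were called lower and 0 higher. Summed, they held 42.1 TPM in technical replicate 2 and 219 TPM in technical replicate 1, 5.21-fold lower in TPM, while the count ratio of the sum was 0.30 on the log2 scale under TMM and -0.96 under total counts. Myd88, the adaptor of nearly all Toll-like receptors, had 113 counts (10.5 TPM) in technical replicate 2 and 1319 counts (38.4 TPM) in technical replicate 1, a log2 ratio of 0.57 (interval 0.28 to 0.85) that was not called. Ticam1, the adaptor of Tlr3 and of endosomal Tlr4 signalling, had 60 counts (3.58 TPM) in technical replicate 2 and 395 counts (7.37 TPM) in technical replicate 1. It was called higher, with a log2 ratio of 1.40 (interval 0.98 to 1.79), although its TPM was 2.06-fold lower.

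Irak2, a kinase that sustains Myd88 signalling, had 210 counts (12.6 TPM) in technical replicate 2 and 1613 counts (34.1 TPM) in technical replicate 1. It was called higher with a log2 ratio of 1.18 (interval 0.96 to 1.38), and its ratio under total counts was -0.09. Irak1, the kinase that links Myd88 to Traf6, had 126 counts (5.81 TPM) in technical replicate 2 and 4110 counts (99.8 TPM) in technical replicate 1. It was called lower with a log2 ratio of -0.91 (interval -1.18 to -0.65), and the call was lost with DESeq2 size factors. Irak2 was therefore the higher of these kinases in TPM in technical replicate 2 and Irak1 in technical replicate 1. Irak4, the upstream kinase, and Irak3, an inhibitor of the pathway, had log2 ratios of 0.71 and 0.20 and were not called under TMM. With total counts Irak3 was called lower, at -1.06, and Irak4 was not called.

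Of the 3 RIG-I-like helicases that sense cytosolic RNA, under TMM 1 was called higher, 1 lower and 1 not called. Differences between them were not tested, and with total counts Ddx58 and Ifih1 were both called lower, at -1.99 and -3.03. Ddx58, which encodes RIG-I, had 170 counts (18.7 TPM) in technical replicate 2, where it was the highest of all sensor genes, and 4896 counts (92.6 TPM) in technical replicate 1. Its log2 ratio was -0.73 (interval -0.96 to -0.51) and it was not called. Ifih1, which encodes Mda5, had 22 counts (0.92 TPM) in technical replicate 2 and 1301 counts (14.8 TPM) in technical replicate 1 and was called lower, with a log2 ratio of -1.77 (interval -2.45 to -1.16). Dhx58, which encodes Lgp2, the family member without a signalling domain, had 107 counts (8.00 TPM) in technical replicate 2 and 479 counts (19.2 TPM) in technical replicate 1. It had the highest ratio of all tested sensor genes, 3.88-fold higher in technical replicate 2 under TMM with a log2 ratio of 1.95 (interval 1.64 to 2.26), and its TPM was 2.40-fold lower.

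In DNA sensing, the synthase gene Cgas had 7 counts (0.30 TPM) in technical replicate 2 and 351 counts (4.98 TPM) in technical replicate 1. Its log2 ratio of -1.53 (interval -2.86 to -0.47) was not called under TMM, and with total counts it was called lower, at -2.79. Tmem173, which encodes its effector Sting, had 63 counts (4.95 TPM) in technical replicate 2 and 2699 counts (66.8 TPM) in technical replicate 1. It was called lower under TMM, with a log2 ratio of -1.30 (interval -1.69 to -0.94), and under every other scaling.

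The NOD-like receptors divided into genes with counts in these libraries and genes with none. Of the 25, the NOD, NLRC and NLRX1 genes number 6, and 3 of them reached 1 TPM in technical replicate 2 against all 6 in technical replicate 1. Of the 5 tested, 2 were called lower and 0 higher under TMM, and all 5 were called lower with total counts. Nlrc5, the transactivator of MHC class I genes, had 70 counts (7.35 TPM) in technical replicate 2 and 4581 counts (97.0 TPM) in technical replicate 1, a log2 ratio of -1.92 (interval -2.28 to -1.58). Nlrc4, the core of the inflammasome that Naip proteins trigger, had 9 counts (0.41 TPM) in technical replicate 2 and 1136 counts (16.3 TPM) in technical replicate 1, a log2 ratio of -2.86 (interval -3.996 to -1.93).

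The peptidoglycan sensors Nod1 and Nod2 and the inhibitory receptor Nlrc3 were not called under TMM. With total counts each was called lower, Nod1 at -2.02, Nod2 at -2.72 and Nlrc3 at -0.96. Nod1 had 51 counts in technical replicate 2 and 1494 in technical replicate 1, a log2 ratio of -0.76 (interval -1.19 to -0.35). Nod2 had 4 counts in technical replicate 2 and 191 in technical replicate 1. Nlrc3 had 132 counts (6.06 TPM) in technical replicate 2 and 1861 counts (26.04 TPM) in technical replicate 1, a log2 ratio of 0.30 (interval 0.03 to 0.55). Nlrc3 was thus close to Nlrc5 in TPM in technical replicate 2, while Nlrc5 stood 97.0 TPM against 26.04 TPM for Nlrc3 in technical replicate 1. Nlrx1, the mitochondrial member, had 9 counts in technical replicate 2 and 95 in technical replicate 1 and fell short of the level filter.

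Of the 19 NLRP genes, 13 had 0 counts in both libraries: Nlrp2, Nlrp4a to Nlrp4g, Nlrp5, Nlrp9a to Nlrp9c and Nlrp14. Apart from the pseudogenes Nlrp4d and Nlrp4g, these are known chiefly from oocytes, early embryos and germ cells. A count of 0 allows up to 3 counts in a library. Of the 4 oocyte markers, Zp3, Nobox and Gdf9 were also at 0 in technical replicate 2 and had 1, 2 and 7 counts in technical replicate 1, while Oosp1 had 4 counts (1.34 TPM) in technical replicate 2 and 90 counts (6.48 TPM) in technical replicate 1. Nlrp3, the sensor of the best known inflammasome, had 1 count (0.04 TPM) in technical replicate 2 and 332 counts (5.90 TPM) in technical replicate 1, and Nlrp1b, which anthrax lethal factor activates in mice, had 3 counts in technical replicate 2 and 485 in technical replicate 1. Both were called lower, with log2 ratios of -4.26 (interval -9.57 to -1.77) and -3.22 (interval -5.50 to -1.66). Nlrp10, with 5 counts in technical replicate 2 and 172 in technical replicate 1, was tested and not called under TMM. With total counts Nlrp10 was called lower, at -2.25. Nlrp1a, a paralogue of Nlrp1b that may share its reads, had 0 counts in technical replicate 2 and 77 in technical replicate 1. Nlrp12 had 0 counts in technical replicate 2 and 66 in technical replicate 1, and Nlrp6 had 1 in technical replicate 2 and 4 in technical replicate 1. These last 3 were below the level filter.

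Several receptors with many counts in technical replicate 1 had few in technical replicate 2. Of 17 sensor genes with at least 1000 counts in technical replicate 1, 7 had at most 20 counts in technical replicate 2 (Tlr1, Tlr4, Tlr7, Tlr9, Tlr11, Tlr13 and Nlrc4). Over all tested genes 792 of 5496 did, or 14.4%. The difference between these shares was not tested, since the genes are not replicates.

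GC content moved with the ratio. Over all tested genes with a known GC content, the median log2 ratio went up with transcript GC, from -1.66 in the lowest of 10 GC bins to 2.27 in the highest, and across the 31 tested sensor genes the Spearman correlation of ratio with GC content was 0.47, beside 0.51 across all. Genes share library and depth here, so these are descriptions across genes. With the bin medians subtracted, 16 sensor genes were lower and 4 higher, beside 25.1% and 28.1% of all tested genes. The median ratio of the sensor genes was -1.0003. Median GC content was 55.4% for the adaptors and kinases, 45.6% for the cell surface receptors and 42.2% for the endosomal receptors. In this order, their median ratios were 0.64, -3.53 and -3.26 under TMM and 0.30, -2.45 and -1.60 with the GC trend removed. Tlr9, at 56.2% GC, had its ratio moved to -6.20, while Tlr3, at 40.1% GC, moved to 1.21 and Ticam1, at 56.4% GC, to 0.06. Tlr1 moved to -4.05, Tlr11 to -4.31 and Tlr4 to -2.53, all still called lower. Ifih1 and Tlr13, at -0.50 and -0.47, were no longer called, and Irak2 at 0.55 and Ticam1 lost their higher call. Nod1 at -2.10 and Nod2 at -2.09 became called lower, and Tlr2 at 1.63, Tlr3 and Irak4 at 1.02 became called higher.

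**Figure D3:**
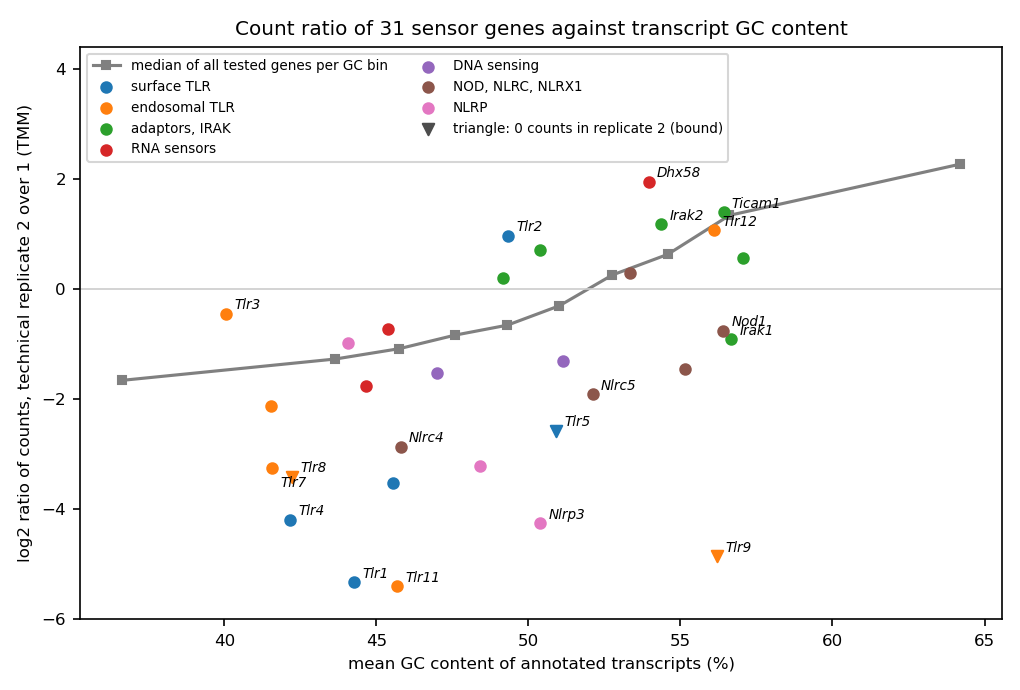
Log2 count ratio (TMM), technical replicate 2 over technical replicate 1, of the 31 tested sensor genes against the mean GC content of their annotated transcripts, coloured by role, with triangles for genes with 0 counts in technical replicate 2. The grey line joins the median ratio of all tested genes in 10 GC bins (-1.66 to 2.27). Tlr1, Tlr9 and Tlr11 lie far below the line and Irak1 and Nod1 also lie below it, as does Myd88, while the other adaptors and kinases lie on or above it.

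The transcripts to which the counts of a gene were assigned also differed. The leading transcript here is the one with the highest share of the gene's TPM, which is length-corrected, so the order by counts can differ. Among 21 sensor genes with at least 2 transcripts, a mean of at least 1 TPM and a count in each library, 13 (61.9%) had the same leading transcript in technical replicate 2 and technical replicate 1, beside 57.0% of 8751 genes chosen in the same way. All 6 Toll-like receptors in this comparison (Tlr3, Tlr4, Tlr7, Tlr11, Tlr12 and Tlr13) kept their leading transcript, as did Myd88, Irak2 and Irak4. Few counts lie behind most of these receptors in technical replicate 2. They were 2 for Tlr11, 4 for Tlr4, 16 for Tlr7, 18 for Tlr13, 35 for Tlr12 and 63 for Tlr3. The only other transcript of Tlr13 is 119 bases long and had 0 counts in both libraries. The 8 that did not were Ddx58, Dhx58, Ifih1, Irak1, Irak3, Nlrc5, Nod1 and Nlrp3, the last with 1 count in technical replicate 2.

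For Ddx58, the full-length coding transcript Ddx58-201 of 18 exons had 0 of the gene's counts in technical replicate 2 and 2723 in technical replicate 1, where it held 41.7% of the gene's TPM. In technical replicate 2 the noncoding Ddx58-205 led with 40.8% of the TPM and held 152 of the 170 counts. For Nlrc5, the coding transcript of 49 exons, Nlrc5-201, had 0 counts in technical replicate 2 and 2410 in technical replicate 1. By share of TPM the leading one in technical replicate 2 was Nlrc5-202, of 3 exons, with 97.8%. In technical replicate 1 it was the retained-intron transcript Nlrc5-203 with 73.4%. By counts Nlrc5-203, with 2091 in technical replicate 1, came below Nlrc5-201. Nlrc5-202 and Nlrc5-203 are 1721 and 1727 bases long. The gene level of Nlrc5 thus rests on different transcripts in each library. That of Ddx58 does so only in part, since Ddx58-205 also held 1717 counts and 29.0% of the TPM in technical replicate 1.

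For Dhx58 the order by TPM was the other way. The coding Dhx58-201 held 100% in technical replicate 2 and 42.8% in technical replicate 1, where the 2-exon noncoding Dhx58-204 led with 46.8%. By counts Dhx58-201 led in both libraries, and in technical replicate 1 it held 349 counts against 102 for Dhx58-204. Irak1 counts were assigned wholly to Irak1-204 in technical replicate 2, and most often to Irak1-206 (38.3% of its TPM) in technical replicate 1, and these coding transcripts differ by 10 bases in length (3825 and 3835). Among these genes Ifih1 had the fewest counts in technical replicate 2 apart from Nlrp3, 22 in all, and the tables give no error for the shares.

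**Figure D4:**
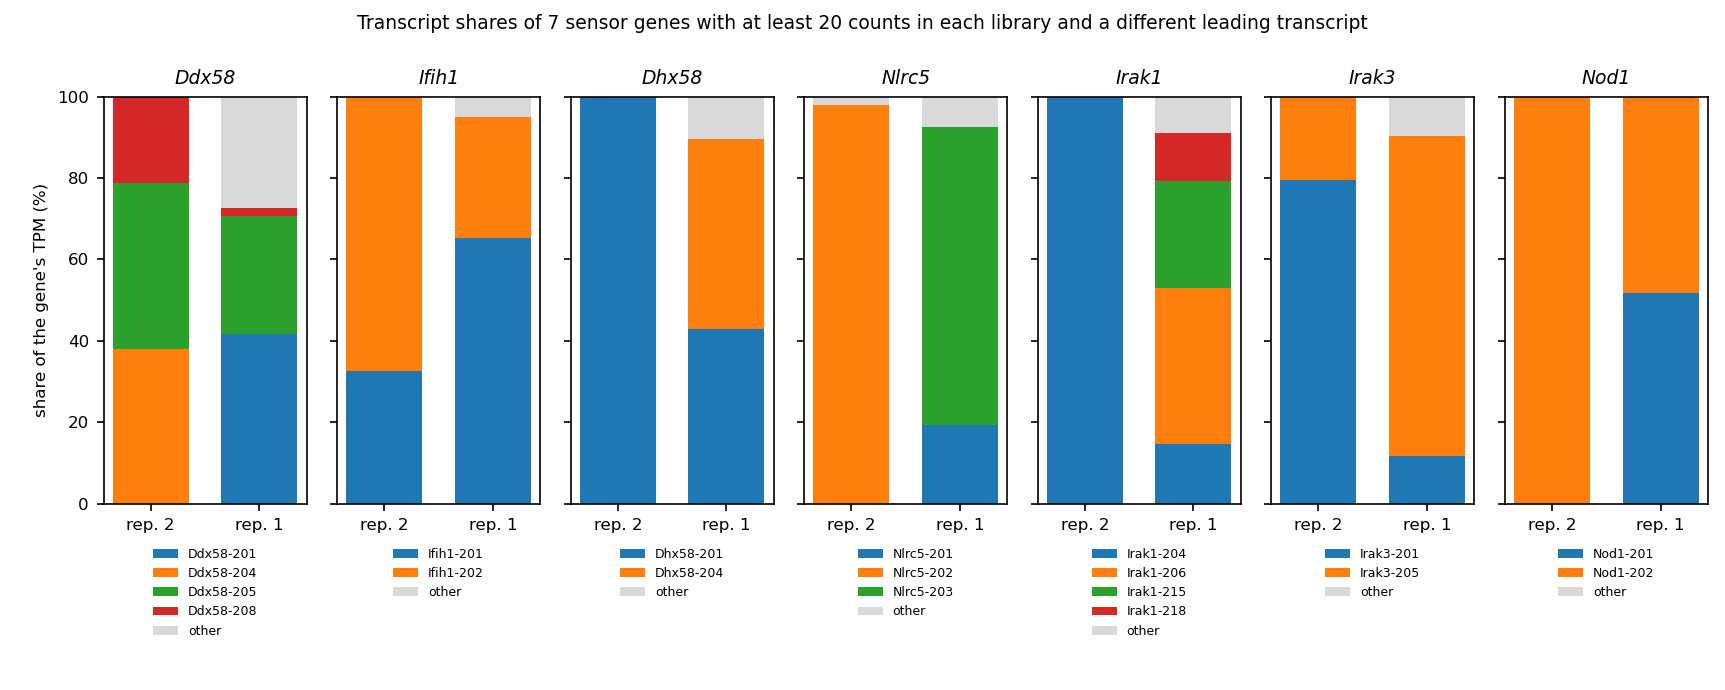
Share of each gene's TPM (%) assigned to its transcripts in technical replicate 2 (left bar) and technical replicate 1 (right bar) of each panel, for the 7 sensor genes with at least 20 counts in each library and a different leading transcript. Transcripts that reach 10% in either library are coloured and the rest are grey. Dhx58, Irak1 and Nod1 rest on 1 transcript in technical replicate 2 and on several in technical replicate 1.

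Other genes of these pathways were called in both directions, and few of the higher calls held under every scaling. Of 61 partner genes of these sensors, 60 were tested, of which 18 were called lower and 13 higher in technical replicate 2, beside 32.6% and 28% of all tested genes, and the median log2 ratio was -0.25. Under every scaling 17 were lower and 3 higher, beside 30.5% and 11.8% of all tested genes. The folding and trafficking genes of Toll-like receptors did not follow the receptors. Unc93b1, which escorts endosomal receptors, had 725 counts (80.5 TPM) in technical replicate 2 and 4558 counts (156 TPM) in technical replicate 1 and was called higher under TMM (log2 ratio 1.46). The chaperone genes Hsp90b1 and Cnpy3 were called higher under TMM as well, at 1.18 and 1.02, and had a lower TPM in technical replicate 2.

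Partners within 1 receptor complex at the cell surface could also lie far apart. Cd180, a Toll-like receptor homologue of B cells, had 5 counts (1.09 TPM) in technical replicate 2 and 6585 counts (150 TPM) in technical replicate 1, a log2 ratio of -6.25 (interval -7.87 to -5.02). Ly86, which encodes its obligate partner Md1, had 637 counts (126 TPM) in technical replicate 2 and 4425 counts (287 TPM) in technical replicate 1, a log2 ratio of 1.32. Ly96 and Cd14, the cofactors of Tlr4, had log2 ratios of 1.29 and -0.07 and were not called.

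Downstream, Pik3ap1, an adaptor that links Toll-like receptors to PI3-kinase, had 0 counts in technical replicate 2 and 1629 in technical replicate 1. Mavs, the mitochondrial adaptor of the RNA helicases, had 18 counts in technical replicate 2 and 1270 in technical replicate 1 (log2 ratio -2.02). Nek7 and Xiap, known for their roles in Nlrp3 and NOD signalling, were lower at -3.93 and -3.94. The 3 partners higher under every scaling were Trex1, a DNA exonuclease that limits cGAS signalling, Card9 and the inflammasome adaptor gene Pycard. Trex1 had 130 counts (23.6 TPM) in technical replicate 2 and 74 counts (4.32 TPM) in technical replicate 1, a log2 ratio of 4.93 (interval 4.51 to 5.36). Pycard had 221 counts (29.6 TPM) in technical replicate 2 and 583 counts (25.1 TPM) in technical replicate 1, a log2 ratio of 2.72. Casp1, the inflammasome protease gene, was called lower (log2 ratio -2.34), a call that was lost with the GC trend removed (-0.68).

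Some values touch neighbouring genes. Exons of Irak4, Irak3, Myd88, Dhx58 and Nlrc5 overlap those of Twf1, Tmbim4, Acaa1a, Dhx58os and 9330175E14Rik on the opposite strand by 395, 192, 290, 141 and 78 bases, in this order. Whether the counting used strand is not given in the sources used here, so reads in these stretches cannot be told apart. Twf1 had 11 counts in technical replicate 2 and 1933 in technical replicate 1, and Dhx58os had 7 in technical replicate 2 and 24 in technical replicate 1.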

How the data were processed

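For each library the deposited files are a gene table and a transcript table. Per the file headers, the authors gave expected counts (which need not be whole), TPM and, for each transcript, its percent of the gene's TPM. Other deposited columns are length and effective length in bases. The deposited text names mm10 with GENCODE M4. The aligner and quantifier are not given in the sources used here. Rows with a numeric identifier or a spike-in, 2.10e-04% of counts in technical replicate 2 and 1.09e-05% in technical replicate 1, stayed out.

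Symbols, coordinates and GC content came from GENCODE M21 on the same genome, which matched 101510 of 103639 transcripts, and 42462 genes had a symbol. GC content of a gene is the mean over its transcripts. Expected counts were rounded. Genes with a mean of at least 1 TPM and at least 50 counts over both libraries were tested. TMM scaling used edgeR 4.0.16 (R 4.3.3), and ratios were given exact Clopper-Pearson 95% intervals. DESeq2 1.42.0 size factors, total counts, TPM and GC removal over 10 bins were alternatives. Where a library had 0 counts, a floor of 3 counts stood in. Both interval and floor reflect counting error alone, as reads copied by PCR are not separate molecules.

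On simulated Poisson counts for the 12467 genes, the rule called 50 of 50 genes at a fold of 4, 30 of 50 at 2, 20 of 50 at 0.5, 36 of 50 at 0.25 and 2 of 12267 unchanged ones. Every sensor gene and every gene of the partner and marker lists could be named. The genes and lists were chosen with earlier results of these data known, and the reading that joins all scalings was chosen after seeing the data. Intervals came from scipy 1.17.1 in Python 3.11.15, and figures from matplotlib 3.10.9.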

Additional observations from a re-analysis of the deposited data

Results flagged for a closer look

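The tables also hold rows with a numeric identifier that were matched to no gene and entered no comparison. In technical replicate 2 they held 8 counts, all on 1 row and above the 3 counts that a count of 0 allows for a row. In technical replicate 1 they held 3 counts, over 2 rows. None of them is a sensor gene.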

How the results depend on the processing

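The number of sensor genes called higher, 3 under TMM, became 5 with DESeq2 size factors, 0 with total counts, 1 with a 2-fold limit, 0 from the TPM ratio and 0 under every scaling, and it stayed within 1.5 times the TMM count under the other settings. The number called lower, 16, lay between 12 and 24 except from the TPM ratio, which gave 31. Partner genes called higher, 13, became 3 with total counts, 3 from the TPM ratio and 3 under every scaling, and those called lower, 18, became 40 with total counts and 52 from the TPM ratio. The leading transcript was shared by 6 of 13 sensor genes with at least 20 counts in each library (46.2%), beside 58.5% of all genes so chosen, which turns round the order of the shares at the lower limit (61.9% beside 57.0%). The median ratio of the sensor genes stayed negative in every setting run, from -2.72 to -0.95.

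Among the sensor genes and the partner genes named in the text, called ratios changed sign as follows. From the TPM ratio, Dhx58 became -1.16, Ticam1 -0.87, Irak2 -1.37, Ly86 -1.18, Unc93b1 -0.94, Hsp90b1 -1.42 and Cnpy3 -1.27. With total counts, Irak2 became -0.0868, Hsp90b1 -0.0857 and Cnpy3 -0.24. With the GC trend removed, Cnpy3 became -0.32 and Cd36 0.16. TMM and total counts differ by a constant, and TPM also divides by effective length. For the GC changes, the cause was not tested. No library could be left out, since each side has 1. No paired analysis was possible because each group holds 1 library. Depth limits the receptors with few counts in technical replicate 2, and their intervals span several log2 units.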
